A study of Mus musculus with 6 samples.

Results

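Type 2 conventional dendritic cells (cDC2) were examined in 5 single-cell RNA libraries of CD45+ cells sorted from mouse mammary tumours. A cell was counted as cDC2 when it held at least 1 Flt3 transcript (unique molecular identifier, UMI) and at least 2 UMIs in sum of the lectin genes Cd209a, Clec10a and Mgl2. It also had to hold at most 1 UMI of Xcr1 and Clec9a, none of Siglech, at most 5 of C1qa, C1qb and C1qc, at most 1 of Cd3e, Cd3d and Cd3g, and none of Cd79a. Of 26843 cells with at least 200 genes and at most 15% mitochondrial counts, 124 met this rule. They were 38 cells of the library labelled MRX, 48 of CTX, 9 of Combined, 21 of ctxd18t and 8 of combod18t. Membership was set by these counts, so the levels of the rule's own genes are given as a description.

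Conventional dendritic cells arise from precursors that need the FLT3 receptor, and they carry tissue antigen to T cells. The cDC2 branch carries SIRPα, depends on the transcription factors IRF4 and ZEB2, displays C-type lectins, and presents antigen on MHC class II mainly to CD4+ T cells. In tumours its transcripts overlap those of monocytes, and interferon gamma acts on it to induce GTPases, the immunoproteasome, PD-L1 (Cd274) and the T-cell attractant CXCL9.

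The study's title names MERTK inhibition and cyclophosphamide in triple negative breast cancer, and its labels give the treatments only as VC, MRX, CTX, Combined, ctxd18t and combod18t, without spelling them out. All are mouse mammary tumour. The protocol describes day 7 mice treated 3 hours before harvest and a sort of DAPI-CD45+ cells, and d18 stands only in the labels of ctxd18t and combod18t. Strain, age, tumour line, dose and the number of mice behind a library are not given in the sources used here. VC, MRX, CTX and Combined were multiplexed in 1 run per the protocol, and the counts of VC were not analysed here. Each label has 1 library, so no comparison has a replicate check and no p-value is given. Brackets hold 95% intervals that cover counting error only, and differences between labels cannot be told apart from differences between mice, tumours or captures.

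The libraries held 4085 to 9064 barcodes and 39820290 to 100733879 UMIs. The cDC2 cells had median UMIs of 10517 for MRX, 13971 for CTX, 13411 for Combined, 16962 for ctxd18t and 18861.5 for combod18t, against 6469.5 to 9170 over all kept cells. The cDC1-rule cells were deeper still in each library, at 11963.5 to 19892.5. Summed over members, 426853, 707428, 130193, 388608 and 150576 UMIs lay behind the gene levels. Levels are counts per 1000000 (CPM) of these sums, and a count of 0 allows up to 7.03, 4.24, 23, 7.72 and 19.9 CPM in the same order, taking 3 counts as the limit. CTX and combod18t shared 34 cell barcodes, and Combined and ctxd18t shared 21, while no other pair shared any.

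The label was first checked against genes that the rule did not use. The summed level of 10 conventional dendritic genes, among them Zbtb46, the transcription factor that marks the lineage, and Itgax, which encodes CD11c, had a value of 1642 CPM for MRX, 1650 for CTX, 1728 for Combined, 1945 for ctxd18t and 2424 for combod18t. Cells picked by a B-cell rule had 434 to 506 CPM of the same list, monocyte-rule cells 754 to 1096 and macrophage-rule cells 835 to 1095. The other dendritic cells had 1078 to 1876 CPM by the cDC1 rule, 1075 to 1559 by the plasmacytoid rule and 1945 to 2995 by the CCR7 rule, the last above cDC2 in every library. Zbtb46 itself lay at 82.0 to 123 CPM in the 5 libraries and Itgax at 143 to 247. The 17 cDC2 identity genes, among them Sirpa, Irf4 and Zeb2, summed to 2373 to 5027 CPM in cDC2 and 366 to 988 in cDC1-rule cells, but also to 3540 to 4471 in monocyte-rule and 3758 to 5260 in macrophage-rule cells. That list therefore set the members apart from cDC1 and did not set them apart from monocytes and macrophages. Irf4 was sparse, at 32.8 CPM in 9 of 38 MRX cells and at most 113 CPM in combod18t. Esam, which marks a splenic cDC2 subset, was at 0 in every library.

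Markers of other dendritic cells, monocytes, macrophages and B cells were present at lower levels than in the cells picked by those rules. Part of that gap is fixed for the migratory, monocyte and B-cell lists, which hold genes that picked the comparison cells. Without those genes the migratory list lay at 656 to 3556 CPM in the members and 6304 to 11661 in CCR7 dendritic cells, and the monocyte list at 2207 to 3287 against 5866 to 8630 in monocyte-rule cells. T, natural killer and neutrophil cells were not picked for comparison. The cDC1 list summed to 597 to 1290 CPM in the members against 4596 to 5440 in cDC1-rule cells, and the plasmacytoid list to 672 to 1342 CPM against 8884 to 11467. The plasmacytoid gene Cox6a2 was at 0 in the members of all 5 libraries, as was the cDC1-list gene Gcsam. Of other plasmacytoid genes, Ly6d was detected in Combined and combod18t members and Klk1 in Combined members, each at 0 elsewhere. The migratory dendritic list, which holds Ccr7, Fscn1 and Ccl17, lay at 1277, 2173, 4194, 1655 and 1707 CPM in the order of libraries used before, against 10206 to 16078 in CCR7 dendritic cells. The sum was higher for CTX than MRX and highest for Combined, but the top Combined cell for Ccl5 held 93.3% of its counts, and that for Ccl17 held 59.8%. Of the 7 genes of this list tested in Combined against CTX, Ccl17 and Ccl5 were called higher and Fscn1 and Il4i1 lower, with a median log2 ratio of 0.39. The part of this list in the differences between these libraries was not tested. Ccr7 was found in 19 of 38, 29 of 48, 7 of 9, 8 of 21 and 4 of 8 members, and Ccr7 together with Fscn1 in 1, 6, 2, 2 and 1. The epithelial list summed to 219 to 651 CPM, all of it from Epcam and Cdh1, with Krt8, Krt18, Krt14 and Krt5 at 0 throughout. Epcam lay at 148 to 419 CPM in the members and at 5.71 to 45.9 CPM in cDC1-rule cells. The monocyte list reached 2338 to 3308 CPM, against 6860 to 9200 in monocyte-rule cells and 1023 to 1718 in B cells, and Cd177 was at 0 throughout. The macrophage list lay at 1190 CPM for MRX, 653 for CTX, 246 for Combined, 919 for ctxd18t and 711 for combod18t, against 5782 to 15307 in macrophage-rule cells, and Pf4 was at 0 outside MRX. B-cell markers summed to 63.3 to 116 CPM with Pax5 and Jchain at 0 throughout, T-cell markers to 201 to 438 CPM with Lat at 0 throughout, and neutrophil markers to 7.68 to 46.5 CPM with Ly6g, Cxcr2, Retnlg and Mmp9 at 0 throughout. Il7r, at 146 to 438 CPM, made up most of the T-cell sum in each library and all of it in combod18t. Natural killer markers reached 1475 CPM in Combined against 6.64 to 288 elsewhere. A single Combined cell with 29 Nkg7 UMIs held most of them, and MRX and CTX had 1 cell each with more than 2.

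**Figure D1:**
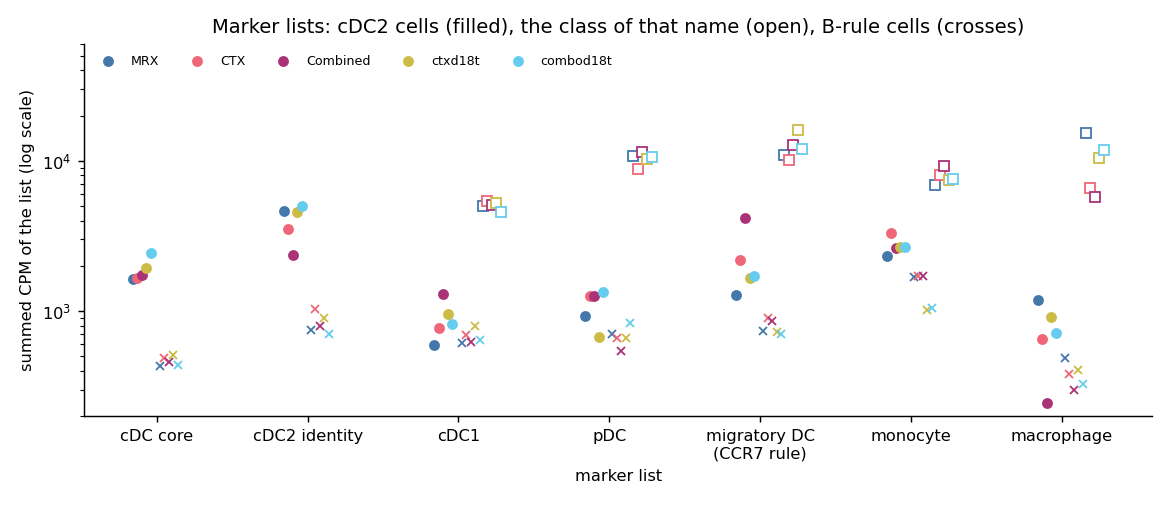
Summed CPM of marker lists (log scale) in cDC2 cells (filled circles), in cells picked by the rule of the list's name (open squares) and in B-rule cells (crosses), coloured by library. Conventional dendritic genes lie above B cells in all 5 libraries, and the cDC1, plasmacytoid, monocyte and macrophage lists lie below the cells that bear those names.

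Against each neighbouring cell type, some genes outside the rule differed in the same direction in all 5 libraries. Compared with cDC1-rule cells, S100a4, a calcium-binding protein, lay at 623 to 1321 CPM in the members and at 0 to 114 CPM there. Il1r2, the decoy receptor for interleukin-1, lay at 604 to 768 CPM against 42.2 to 117, and Cybb, the catalytic subunit of the phagocyte oxidase, at 401 to 672 against 3.58 to 91.7. The cDC1 genes Rab7b, Cadm1 and Naaa were lower, with Cadm1 at 29.7 to 82.0 CPM against 480 to 723. Compared with monocyte-rule cells, the dendritic transcriptional regulator Zfp366 lay at 161 to 293 CPM against 0 to 2.02, Timd4, a phosphatidylserine receptor, at 262 to 651 against 0 to 6.39, and Stat4 at 171 to 438 against 6.74 to 27.4. Fn1, Thbs1 and Ly6c2 were lower than in monocytes in each library, with Ly6c2 at 13.3 to 131 CPM against 345 to 1133. Ms4a7, a macrophage gene, was lower than in macrophage-rule cells, and was at 0 in 3 libraries and at 18.7 CPM or less in the others. Compared with CCR7 dendritic cells, Alox5ap, which activates 5-lipoxygenase, was higher at 430 to 817 CPM against 10.6 to 122, and Socs2 was lower at 4.69 to 69.1 against 294 to 889. The comparison cells were few in places, down to 5 CCR7 dendritic cells in combod18t and 6 in Combined.

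The members just inside the rule's thresholds were many. Flt3 was detected as exactly 1 UMI in 19 of 38 MRX, 28 of 48 CTX, 6 of 9 Combined, 5 of 21 ctxd18t and 2 of 8 combod18t members. Just outside, 49, 301, 79, 30 and 9 cells in the same order missed the rule only for lack of Flt3. Their Lyz2, the myeloid lysozyme, lay at 3669, 5901, 8956, 6711 and 10164 CPM, above the 1345, 1487, 115, 1755 and 2059 CPM of the members. Another 12 to 49 cells per library missed only the lectin threshold, and 12 to 103 only the absence of Siglech. In Combined, 1 of the 9 members had exactly 2 lectin UMIs. That cell had Zbtb46 and Itgax at 0, Ly6c2 at 1330 CPM and H2-Ab1 at 2550 CPM, so its identity is unclear. The lectins differed among members: all 3 were detected in 11 MRX, 19 CTX, 1 Combined, 6 ctxd18t and 2 combod18t cells. Cd209a and Clec10a were highest in MRX, at 874 and 529 CPM, and Mgl2 was lowest there, at 321 CPM in 17 of 38 cells. In CTX Mgl2 lay at 1286 CPM in 38 of 48 cells.

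The cDC2 share of kept cells was 0.699% (0.495 to 0.958) for MRX, 0.539% (0.398 to 0.715) for CTX, 0.201% (0.0920 to 0.381) for Combined, 0.524% (0.324 to 0.799) for ctxd18t and 0.199% (0.0860 to 0.392) for combod18t, with exact Clopper-Pearson intervals. Combined was lower than CTX by 0.338 percentage points, a difference of -0.338 (-0.538 to -0.114, Newcombe interval). The difference between combod18t and ctxd18t was -0.324 points (-0.617 to -0.0597), that between Combined and MRX -0.497 (-0.773 to -0.236), and that between CTX and MRX -0.159 (-0.450 to 0.0986). When every cell was first thinned to 2000 UMIs, 12, 10, 4, 7 and 5 cells met the rule in the same order of libraries. Thinning lowers every share, and with it the size that a difference in points can reach. The thinned shares were 0.227% for MRX, 0.115% for CTX, 0.0912% for Combined, 0.184% for ctxd18t and 0.129% for combod18t. The differences were then -0.0236 points (-0.135 to 0.129) for Combined against CTX, -0.0552 (-0.264 to 0.141) for combod18t against ctxd18t, -0.136 (-0.314 to 0.0371) for Combined against MRX and -0.112 (-0.289 to 0.0246) for CTX against MRX. All 4 of these intervals include 0, so a difference in share was not detectable at this depth.

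As a share of dendritic cells, meaning cells of the cDC2, cDC1, plasmacytoid and CCR7 rules together, cDC2 made up 21.5% (15.7 to 28.3) for MRX, 36.4% (28.2 to 45.2) for CTX, 14.8% (6.98 to 26.2) for Combined, 27.6% (18 to 39.1) for ctxd18t and 25% (11.5 to 43.4) for combod18t. At full depth CTX was the highest of the 5, and its interval did not overlap that of Combined. The difference between Combined and CTX was -21.6 points (-32.5 to -8.20), and that between combod18t and ctxd18t was -2.63 (-18.7 to 16.6). After thinning the order changed, with 5 of 38 dendritic cells in combod18t and 10 of 82 in CTX. The first of these differences became -5.85 points (-15.5 to 4.56), and the CTX minus MRX difference of 14.9 points (4.73 to 25) became 2.60 (-5.83 to 12.3). Both intervals then include 0, so neither difference was detectable at this depth. Thinning also loosens the rules' upper limits. The dendritic cells counted rose from 61 to 63 in Combined and from 32 to 38 in combod18t, and fell in the other libraries.

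**Figure D2:**
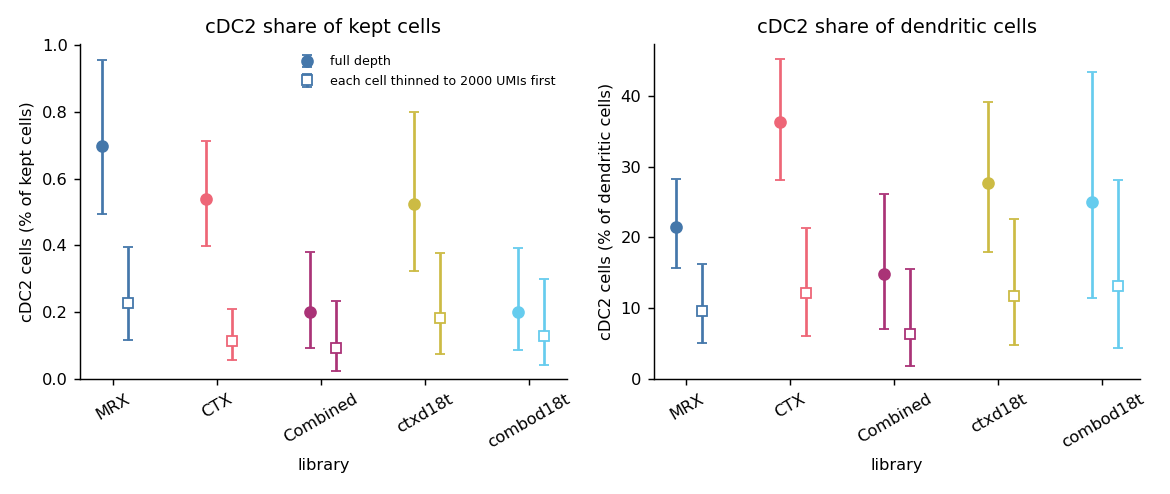
cDC2 cells as a percentage of kept cells (left) and of dendritic cells (right) in each library, with 95% Clopper-Pearson intervals, at full depth (filled) and with every cell thinned to 2000 UMIs before the rule (open). At full depth Combined and combod18t lie lowest among kept cells, at 0.201% and 0.199%, and after thinning all intervals overlap.

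Between the CTX and MRX members, 48 and 38 cells, genes that interferon gamma induces were higher in CTX. Of the 18 fixed lists with at least 5 tested genes, the interferon-gamma list was the 1 whose median passed 2-fold. A gene was tested where 1 library of the pair had at least 100 CPM and the pair at least 20 counts, and called where the log2 ratio of CPM + 1 was at least 1 in size, a 2-fold change. Of 2073 genes tested, 4% were called higher in CTX and 5.31% lower, 9.31% in all. Of the 13 tested genes of the interferon-gamma list, 10 were called higher and none lower, with a median log2 ratio of 1.97 against 0.00 over all tested genes. The MHC class I list had 8 of 17 called higher and none lower, with a median of 0.76. The type I interferon list had 3 of 13 called higher and none lower, with a median of 0.69.

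Cxcl9 (ENSMUSG00000029417), which encodes a ligand of the T-cell receptor CXCR3, was detected in 5 of 38 MRX, 33 of 48 CTX, 7 of 9 Combined, 6 of 21 ctxd18t and 1 of 8 combod18t members. Its levels were 58.6, 633, 1559, 239 and 39.8 CPM in that order. Counts per cell ran from 0 to 13 in MRX with a median of 0, from 0 to 83 in CTX with a median of 2.5, and from 0 to 81 in Combined with a median of 12. The cells of the groups overlapped at 0, and most CTX and Combined cells lay above the MRX median. The log2 ratio of CTX to MRX was 3.41 (2.85 to 4.08). With each cell thinned to 2000 UMIs, Cxcl9 was found in 3 of 38, 20 of 48, 6 of 9, 5 of 21 and 1 of 8 members, against 2 of 261, 3 of 484, 7 of 538, 1 of 710 and 0 of 221 B cells.

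**Figure D3:**
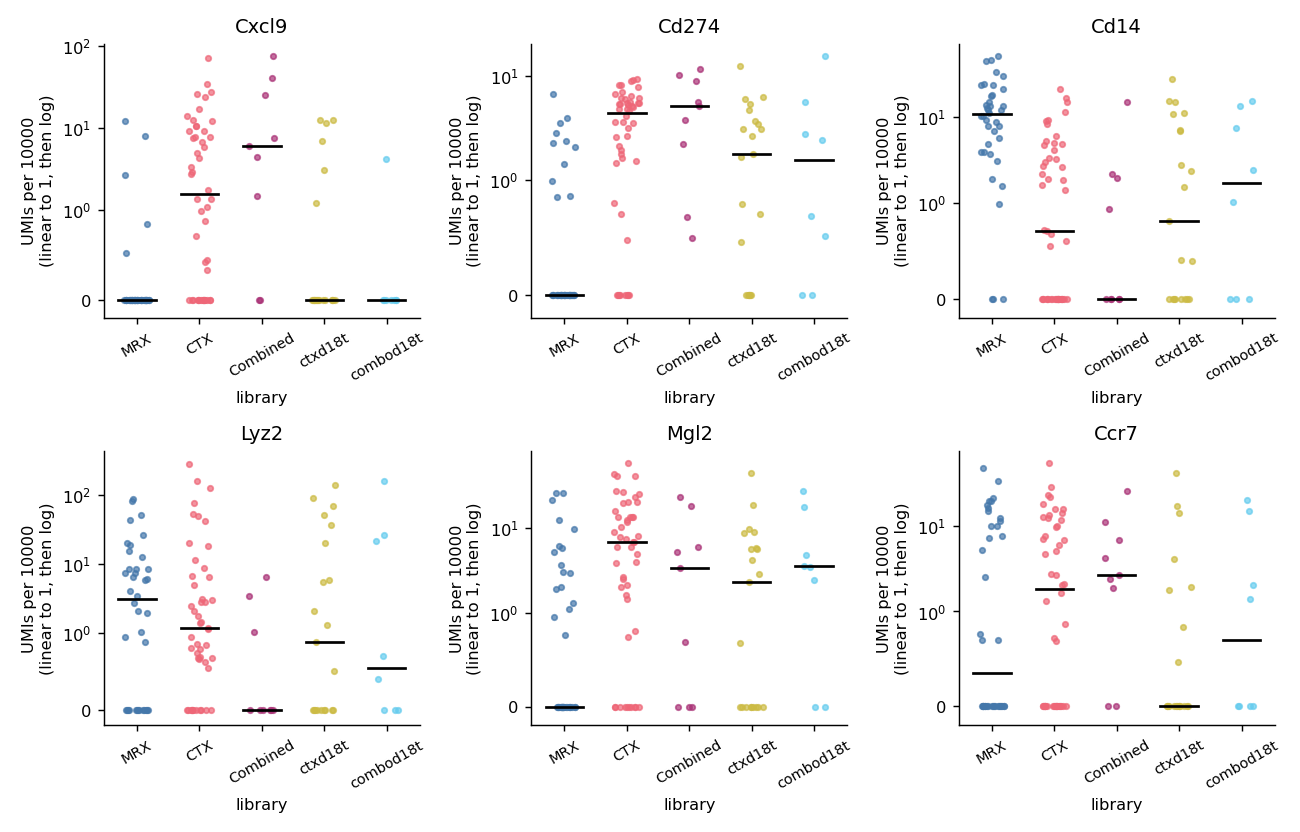
UMIs per 10000 in each cDC2 cell by library for 6 genes, on an axis that is linear to 1 and logarithmic above, with black bars at the median. Most MRX cells hold no Cxcl9 or Cd274, most CTX and Combined cells do, and Cd14 is highest in MRX.

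Cd274 (ENSMUSG00000016496), the checkpoint ligand PD-L1, was detected in 11 of 38 MRX and 40 of 48 CTX members, at 70.3 and 403 CPM, a log2 ratio of 2.50 (1.97 to 3.11). Its level was 484 CPM in Combined, 273 in ctxd18t and 319 in combod18t, so that MRX alone lay under 100 CPM. Irf1, an interferon-induced transcription factor, was at 53.9 CPM in MRX and 213 in CTX, a log2 ratio of 1.97 (1.35 to 2.69). The interferon-inducible GTPases followed with ratios of 3.86 (2.45 to 6.35) for Gbp2, which had only 3 counts in MRX, 3.05 each for Gbp4 and Iigp1, 1.44 for Ifi47 and 1.04 for Gbp7. Fgl2, a secreted regulator of T cells, had a ratio of 1.19 (0.87 to 1.53). Cxcl10, another CXCR3 ligand, did not differ by 2-fold, with a ratio of 0.05 (-0.44 to 0.55) and most of its counts in 1 cell of each library. Ifngr1 and Ifngr2, the receptor chains, had ratios of -0.97 and -0.35.

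The antigen-processing machinery of MHC class I was higher in CTX than in MRX. Psmb8 and Psmb9, catalytic subunits of the immunoproteasome, had log2 ratios of 1.33 (1.09 to 1.60) and 1.61 (1.29 to 1.94), with Psmb8 at 375 CPM in MRX and 947 in CTX. The peptide transporter genes Tap1 and Tap2 had ratios of 1.06 and 1.91, and Nlrc5, the transactivator of class I genes, 2.22. The other genes called were Psmb10, Psme2 and H2-T23, at 1.06, 1.06 and 1.26. The class I heavy chains H2-K1 and H2-D1 were under 2-fold, at 0.51 and 0.39, and so was B2m, the light chain, at 0.51. MHC class II stayed near equality: none of 10 tested genes was called, the median was -0.03, and H2-Ab1, the class II beta chain, lay at 7804, 7653, 6851, 6577 and 5419 CPM in MRX, CTX, Combined, ctxd18t and combod18t. Of the costimulatory and checkpoint list, 3 of 11 tested genes were called higher in CTX: Pdcd1lg2, the checkpoint ligand PD-L2, at 4.44 (3.31 to 6.20), Slamf7 at 2.10 and Cd200r1 at 1.60. Cd86, the main costimulatory ligand, had a ratio of 0.13 (-0.10 to 0.35), and Cd40 one of 0.79.

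The same interferon-gamma list was also higher in CTX than in MRX in other cells. Its summed level went from 1591 to 3928 CPM in cDC2, from 1527 to 4892 in cDC1-rule cells, from 2004 to 4752 in monocyte-rule and from 1596 to 4277 in macrophage-rule cells, and from 2784 to 3224 in CCR7 dendritic and from 1112 to 1437 in B cells. The macrophage list in the cDC2 members went down, from 1190 to 653 CPM, and the monocyte list went up, from 2338 to 3308, and their part in the result was not tested. With Flt3 required at 2 or more UMIs, leaving 19 MRX and 20 CTX cells, the list's median log2 ratio was 3.08.

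Promoters of the called interferon-gamma genes were searched for the gamma-activated site (GAS, TTCNNNGAA) and the core of the interferon-stimulated response element (GAAA, any 2 bases, GAAA), on both strands, in the 250 bases before each RefSeq start (GRCm38.p6). Of the 10 called genes, 7 had an entry, 3 of these held a GAS motif (Irf1, Gbp7, Fgl2), 2 held the response element core (Gbp2, Gbp7) and 4 held either. Of all 32851 promoters in the table, 7.02% held the first motif and 2.98% the second. The 3 windows printed show the single GAS motif of the transcription factor, both motifs together in a GTPase, and the response element alone in another, with the motifs in capitals. They lie at chr3:142530086-142530335 (Gbp7, + strand), chr3:142620413-142620662 (Gbp2, + strand) and chr11:53769764-53770013 (Irf1, + strand), 5′ to 3′.
Gbp7: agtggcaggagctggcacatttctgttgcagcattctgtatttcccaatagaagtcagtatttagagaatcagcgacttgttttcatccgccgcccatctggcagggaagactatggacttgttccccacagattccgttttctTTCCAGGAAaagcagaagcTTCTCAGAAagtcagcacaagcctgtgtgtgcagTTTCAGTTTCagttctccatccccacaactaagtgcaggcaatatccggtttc
Gbp2: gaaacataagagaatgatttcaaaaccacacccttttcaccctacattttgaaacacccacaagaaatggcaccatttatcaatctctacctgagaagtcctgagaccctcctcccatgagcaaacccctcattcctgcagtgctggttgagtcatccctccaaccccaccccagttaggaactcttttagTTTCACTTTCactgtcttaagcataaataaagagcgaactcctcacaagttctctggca
Irf1: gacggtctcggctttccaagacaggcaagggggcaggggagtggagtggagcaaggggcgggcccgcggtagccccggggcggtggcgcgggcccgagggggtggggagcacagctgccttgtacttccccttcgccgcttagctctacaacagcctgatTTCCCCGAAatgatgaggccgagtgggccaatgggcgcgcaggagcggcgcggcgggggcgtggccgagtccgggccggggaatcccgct
The first bases of the Gbp7 GAS motifs lie 106 and 87 bases before the start and that of its response element 53, the Gbp2 element lies 59 before and the Irf1 motif 90 before. No match was found in the windows of Cxcl9, Cd274 and Ifi47, which says only that these letters are not there.

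Outside the interferon lists, the highest CTX to MRX ratios by the rule for named genes were led by AY761185, Fscn1 and Cd209e. AY761185 was at 0 in MRX and had 490 counts in 19 CTX cells, at least 98.6-fold higher taking 3 counts as the MRX limit. Fscn1, the actin bundler of mature dendritic cells, had 1 count in MRX and 104 in 8 CTX cells, a log2 ratio of 5.47 (3.46 to 11.29). Cd209e, a lectin, had 1 and 92 counts, a ratio of 5.29 (3.28 to 11.11). Gbp2b, a guanylate-binding GTPase with 2 MRX counts, had a ratio of 5.16 (3.55 to 8.49). Ly6a, an interferon-inducible surface protein, lay at 46.9 CPM in 3 of 38 MRX cells and 1006 CPM in 26 of 48 CTX cells, a ratio of 4.40 (3.79 to 5.14). Il4i1, an amino acid oxidase of dendritic cells, had a ratio of 3.91, Cxcl11, a CXCR3 ligand, 3.47 and AA467197, with 3 MRX counts, 3.95 (2.53 to 6.43). Ccl17, a ligand of CCR4, had a ratio of 3.26 (2.17 to 4.82) with 55% of its CTX counts in 1 cell, and Cd209d one of 3.18. Ccr7 itself, the lymph node homing receptor, did not differ, at 618 and 674 CPM with a ratio of 0.12 (-0.10 to 0.35).

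Cd14 (ENSMUSG00000051439), the lipopolysaccharide co-receptor that marks an inflammatory cDC2 state, was lower in CTX. Its levels were 1511 CPM for MRX, 349 for CTX, 207 for Combined, 448 for ctxd18t and 498 for combod18t, with UMIs in 35 of 38, 28 of 48, 4 of 9, 13 of 21 and 5 of 8 members. The median count per cell was 11 for MRX, 1 for CTX, 0 for Combined, 2 for ctxd18t and 4 for combod18t, and the cells of the groups overlapped. The CTX to MRX log2 ratio was -2.11 (-2.33 to -1.90), and after thinning Cd14 was found in 30 of 38 MRX and 16 of 48 CTX members, against 7 of 261 and 20 of 484 B cells. The DC3 and inflammatory cDC2 list that holds Cd14 had 2 of 7 tested genes called lower (Cd14 and Anxa1) and none higher, with a median of -0.11. Of the 13 cDC2 identity genes tested, Itgam (CD11b) at -1.35, Klf4 at -1.64, Csf1r at -1.50 and Ifitm1 at -1.35 were called lower, and Cd209d higher. Ccr2, the receptor for monocyte attractants, had a ratio of -1.42 (-1.74 to -1.11), and with Ccr1 and Cxcr4 it made 3 of 9 receptors called lower and none higher. Cxcl2, a neutrophil attractant, had one of -2.43. Il1b did not differ by 2-fold, at 3324 and 3083 CPM. The lowest ratios by the rule for named genes were Arhgap24 at -4.06 (-5.71 to -3.01), the growth factor Areg at -3.40, Ifitm6 at -2.51, Lsamp at -2.41, Glis3 at -2.35, Tsc22d3 (GILZ), a glucocorticoid-induced gene, at -2.20, Ldlrad4 at -2.12, Ddit4 at -2.08 and Stk10 at -1.97. Areg rested on 4 MRX cells, and Apoe, at -1.75, had 58% of its MRX counts in 1 cell and -0.85 without the top cell of each library. The immediate early and heat shock list, whose genes also respond to handling of cells, was lower in CTX alongside. It went from 7120 CPM in MRX to 4591 in CTX, with a median log2 ratio of -0.65, and its part in these results was not tested. Of 52 genes named as past 2-fold in this pair, 51 kept their direction and 42 stayed past 2-fold in every alternative.

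**Figure D4:**
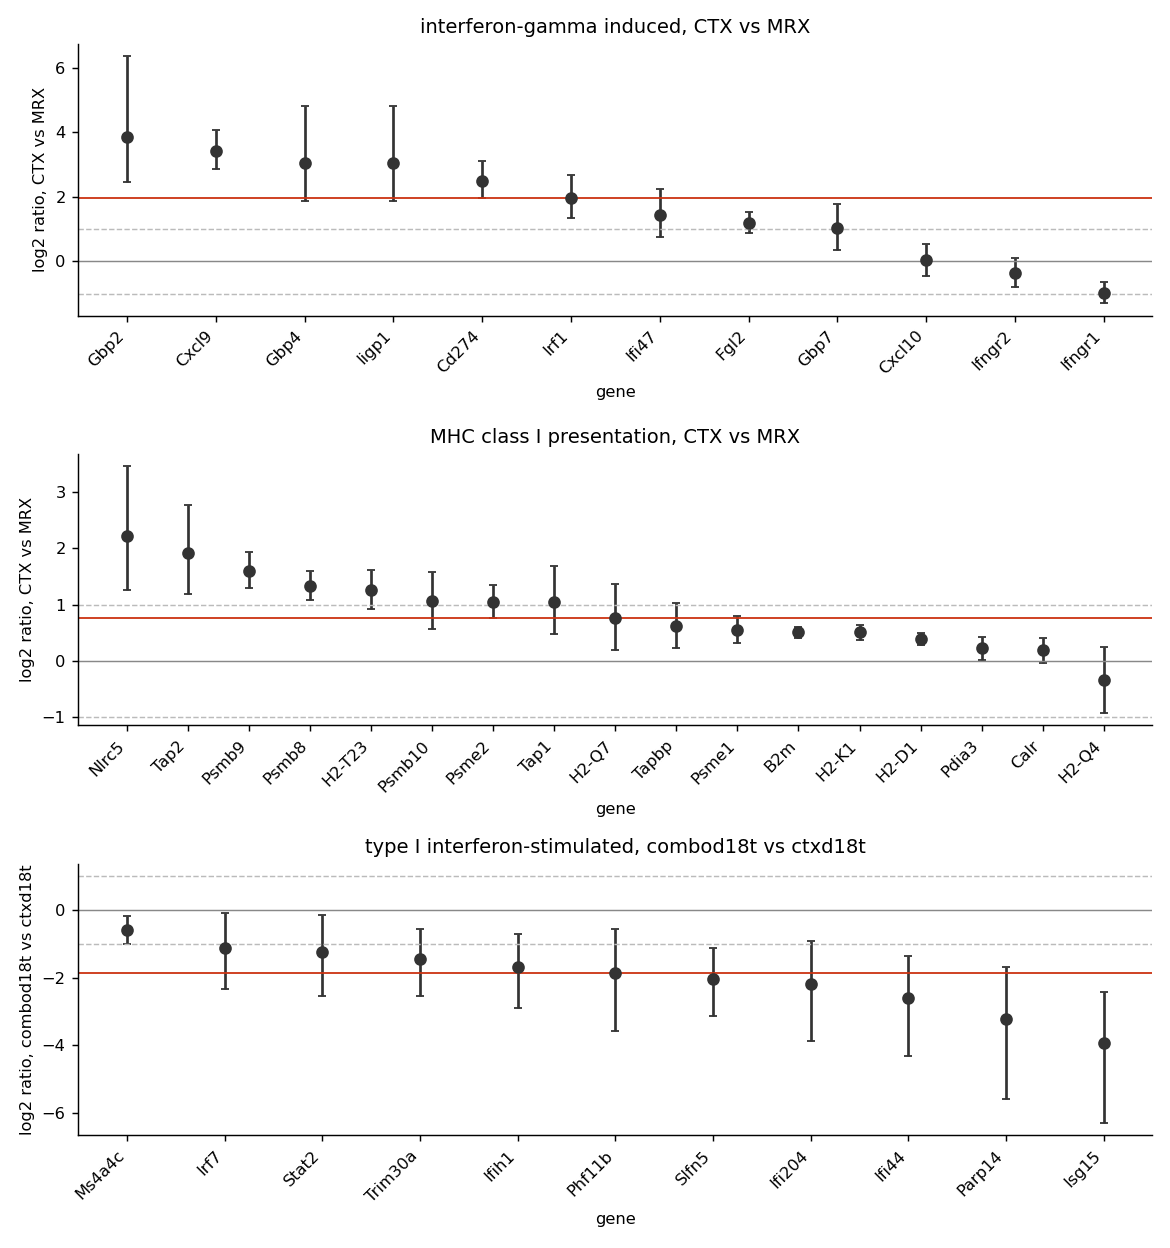
Log2 ratio of CPM + 1 with 95% counting interval for tested genes of the interferon-gamma and MHC class I lists in CTX against MRX, and of the type I interferon list in combod18t against ctxd18t. Dashed lines mark 2-fold and red lines the list medians of 1.97, 0.76 and -1.86.

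The Combined library held 9 members, and many of its values rest on 1 cell. Of 2068 genes tested against CTX, 5.51% were called higher and 5.37% lower, 10.9% in all. In the interferon-gamma list, 3 of 16 genes were called higher and none lower, with a median of 0.28 against 0.02 over all genes. Cxcl9 had a log2 ratio of 1.30 (1.05 to 1.54) and of 0.96 with the top cell of each library left out. Serpina3g, a protease inhibitor, lay at 94.7 CPM in 26 of 48 CTX cells and 445 CPM in 7 of 9 Combined cells, a ratio of 2.22 (1.70 to 2.76) and 1.79 without the top cells. Socs1, the feedback inhibitor of interferon signalling, had a ratio of 1.37 (0.40 to 2.33) in 5 of 9 cells, and of 0.091 with each member thinned to 2000 UMIs. Irf8, a transcription factor that cDC1 and monocytes also use, lay at 154 CPM in 19 of 48 CTX cells and 599 CPM in 8 of 9 Combined cells, a ratio of 1.95 (1.52 to 2.39) and 2.17 without the top cells. Ly6a was found in all 9 Combined cells at 2089 CPM, a ratio of 1.05 (0.85 to 1.26), but of -0.15 when Flt3 was required at 2 UMIs, which leaves 3 Combined cells. MHC class I was not called in any of 17 genes, with a median of 0.16, and class II in 1 of 11 (H2-Oa), with a median of -0.16. Against MRX, Combined had 10 of 13 interferon-gamma genes called higher and 1 lower where 8.82% of 2176 tested genes were called higher and 10.2% lower, 19% in all. This comparison shares its libraries with the pairs given before it.

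Several C-type lectins were lower in Combined than in CTX. Of 9 C-type lectins outside the rule, 5 were called lower (Clec4a3, Clec4b1, Cd209d, Cd209e, Mrc1) and 1 higher (Ly75), with a median of -1.03. Clec4a3 and Mrc1 stayed past 2-fold in every alternative and the other 4 did not. Stricter exclusions gave -0.27 for Cd209d and -0.99 for Cd209e, thinning each member to 2000 UMIs gave -0.58 for Clec4b1, and Flt3 at 2 or more UMIs gave 0.78 for Ly75. Clec4a3 was at 0 in all 9 Combined cells and had 103 counts in 26 of 48 CTX cells, at least 6.32-fold lower. Mrc1, the mannose receptor, was also at 0, with 116 counts in 21 CTX cells, at least 7.12-fold lower, and the ribonuclease gene Ear2 was at 0 with 156 counts in 17 CTX cells, at least 9.57-fold lower. Lyz2 lay at 115 CPM in 3 of 9 Combined cells and 1487 CPM in 37 of 48 CTX cells, a log2 ratio of -3.68 (-4.53 to -2.96) that was -1.41 with Flt3 at 2 or more UMIs. Members with exactly 1 Flt3 UMI had Lyz2 at 2284 CPM in CTX and 99.4 CPM in Combined. Lyz2 was the 1 gene of 6 called in the DC3 and inflammatory list. The cDC2 identity list had 5 of 13 genes called lower (Sirpa, Zeb2, Tnip3, Cd209d, Fcgr2b) and 2 higher (Klf4, Cd7), with a median of -0.50. Zeb2, a cDC2 and monocyte transcription factor, had a ratio of -2.05 (-2.78 to -1.41) and Sirpa, the phagocytosis checkpoint receptor of cDC2, -1.22 (-2.48 to -0.20). Apoe, with 1 count in Combined, had a ratio of -3.82 (-9.30 to -1.47). The macrophage list in the members was lower alongside, 246 against 653 CPM, and its part in these results was not tested. Other genes with the lowest ratios were Cd209e at -3.00 (-6.15 to -1.19) with 2 Combined counts, Fbxl5 at -2.84, Nrp2 at -2.69, Romo1 at -2.67, Arhgap26 at -2.51, AY761185 at -2.40 (-3.20 to -1.71) and Cd200r1 at -2.28. Fbxl5 and Romo1 had 2 Combined counts each, and Nrp2 and Cd200r1 had 3.

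The immediate early and heat shock list, whose genes also respond to handling of cells, was at 7120 CPM for MRX, 4591 for CTX and 6798 for Combined. Of its 14 tested genes, Fos, Fosb, Egr1, Ier3, Atf3 and Zfp36 were called higher in Combined than CTX and Dusp1 lower, with a median of 0.99, and the part of this list in the Combined results was not tested. One cell held all Combined counts of Egr1, and the top cell for Ier3 held 72.7% of its counts.

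The highest Combined to CTX ratios came mostly from single cells. Ccl4 and Ccl3, inflammatory chemokines, had ratios of 5.48 and 5.02 with 98% of each gene's Combined counts in 1 cell, and 0.65 and 0.79 without the top cells. Ccl5 had a ratio of 4.39 with 93% in 1 cell and 1.87 without the top cells. Clec1a at 6.26, Prf1 (perforin) at 5.37, Egr1 at 4.35, Tnfrsf9 (4-1BB) at 4.29 and Cemip2 at 2.75 were each found in 1 Combined cell. Spp1 (osteopontin) at 3.09 had 97% of its counts in 1 of 2 cells, and Ppp1r16b at 2.74 was found in 2. Cxcl9 and Ccl17 were spread over more cells than these chemokines. Ccl17 was found in 5 of 9 Combined and 12 of 48 CTX cells at 899 and 143 CPM, with a ratio of 2.65 (2.26 to 3.05) and 2.60 without the top cells. Of 43 genes named as past 2-fold in this pair, 28 kept their direction in every alternative and 16 stayed past 2-fold, and 8 turned without the top cells.

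In the d18 libraries the type I interferon list was lower in combod18t than in ctxd18t. Of 2410 genes tested between these 8 and 21 cells, 8.84% were called higher and 5.73% lower, 14.6% in all. In the type I interferon list, 10 of 11 tested genes were called lower and none higher, with a median of -1.86 against 0.06 over all genes. Isg15 (ENSMUSG00000035692), a ubiquitin-like modifier, lay at 131 CPM for MRX, 556 for CTX, 184 for Combined, 322 for ctxd18t and 19.9 for combod18t, with UMIs in 17 of 38, 32 of 48, 6 of 9, 15 of 21 and 2 of 8 members. Its combod18t to ctxd18t log2 ratio was -3.95 (-6.31 to -2.43), with 3 counts in combod18t, and its Combined to CTX ratio was -1.59 (-2.25 to -0.997). Parp14, with 3 combod18t counts, had a ratio of -3.23 (-5.60 to -1.69), Ifi44 of -2.61 (-4.31 to -1.37), Ifi204, a DNA sensor, of -2.18 and Slfn5 of -2.04. Phf11b at -1.86, Ifih1, the RNA sensor MDA5, at -1.69, Trim30a at -1.46, Stat2, a transcription factor of type I interferon signalling, at -1.23 and Irf7 at -1.12 were the other genes called. Irf7 turned to 0.04 with Flt3 at 2 or more UMIs and to 0.65 with each member thinned to 2000 UMIs, a setting in which 1 gene of the list could still be tested, with a value of -0.78.

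This difference was seen in other cells of the same libraries as well. The list's summed level was 3693 CPM in ctxd18t and 1182 in combod18t in cDC2, 4106 and 1261 in cDC1-rule cells, 3936 and 1547 in plasmacytoid-rule cells, 2907 and 1111 in CCR7 dendritic cells, and 4794 and 3783 in monocyte-rule cells. The interferon-gamma list of the members was near equal, with 2 of 8 genes called lower (Irf1 and Cxcl9), none higher and a median of -0.20. Cxcl9 was at 239 CPM in 6 of 21 ctxd18t cells and 39.8 CPM in 1 of 8 combod18t cells, a log2 ratio of -2.56 (-4.07 to -1.41). MHC class I had 2 of 14 called lower with a median of -0.40, and class II none of 10 with a median of -0.30. Other lists in the members differed in the same pair, while the monocyte list was near equal. From ctxd18t to combod18t the plasmacytoid list went from 672 to 1342 CPM, with Tcf4 and Runx2 of 3 tested genes called higher. The macrophage list went from 919 to 711 CPM, the DC3 and inflammatory list from 9143 to 6980, with Fcgr4, Il1b and Anxa1 of 8 tested genes called lower, and the monocyte list from 2676 to 2670. The part of these lists in the type I interferon result was not tested.

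Chemokine and lectin genes differed in both directions in the d18 pair. Of 7 tested chemokines, Ccl17 and Ccl22 were called higher and Ccl2, Ccl6 and Cxcl9 lower. Of 9 lectins outside the rule, Cd209d and Ly75 were called higher and Clec4a3, Clec4b1 and Mrc1 lower. Ccl22, a CCR4 ligand of mature dendritic cells, had 37 counts in 3 of 8 combod18t cells and 1 count in ctxd18t, a log2 ratio of 6.11 (4.01 to 11.92). Areg and Slpi, a protease inhibitor, were at 0 in ctxd18t and had 32 counts each in 2 combod18t cells, at least 27.5-fold higher. Gria3 had 39 counts in 2 cells against 1 count, a ratio of 6.19 (4.09 to 11.99). H1f5, Rrm2, H3c3 and Top2a, genes of dividing cells, were each found in 1 combod18t cell, at 731, 173, 126 and 305 CPM, and Mki67 turned from 1.07 to -3.14 without the top cells. The cell-cycle list, with 6 of 9 genes called higher and none lower, rests mostly on 1 cell. H1f4 had a ratio of 5.38 and 2.64 without the top cells, and Spp1 one of 5.26 and 1.84. Hspa1b, Ccl2 and Pou2f2 were at 0 in combod18t, at least 11.8-, 7.62- and 5.04-fold lower, from 4, 4 and 11 ctxd18t cells. H2-M2 at -4.39 and Clec4b1 at -4.39 (-9.91 to -2.05) had 1 combod18t count each, and Grap2 at -3.30, Gramd1b at -3.17 and Tex14 at -3.12 were the next lowest. Of the ctxd18t counts of Gramd1b 86.5% were in 1 cell, and its ratio was -1.27 without the top cells and -0.51 without very deep members. Il1b, the inflammatory cytokine, was at 4596 CPM in 21 of 21 ctxd18t cells and 2178 CPM in 7 of 8 combod18t cells, a ratio of -1.08 (-1.25 to -0.91). Of 50 genes named as past 2-fold, 39 kept their direction in every alternative and 32 stayed past 2-fold.

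Some genes had the same sign in the pairs Combined against CTX and combod18t against ctxd18t, which share no library. Apart from Zeb2, the genes named here were picked for that agreement, so it is no replication. In these pairs 10.9% and 14.6% of tested genes were called. The share of all tested genes that agree in sign was not counted, and other named genes had opposite signs. Clec4a3 was lower in both, with 0 counts in Combined and a log2 ratio of -2.21 (-3.91 to -0.94) in the d18 pair. Clec4b1, another C-type lectin gene, had ratios of -2.15 (-4.51 to -0.60), on 3 Combined counts, and -4.39. The inhibitory receptor gene Lilrb4b had ratios of -1.79 and -1.66, the first of which was 0 with each member thinned to 2000 UMIs, and Isg15 had ratios of -1.59 and -3.95. Ifi202b, an interferon-inducible DNA-binding gene, had -1.55 in each. The type I interferon list as a whole had 2 of 14 genes called lower in Combined against CTX (Isg15 and Ifih1), none higher and a median of -0.25, against 10 of 11 in the d18 pair. Zeb2 was lower in both, at -2.05 and -1.39. Higher in both were Ccl17 at 2.65 and 2.55, Spp1, Cd7, the B-cell adaptor gene Blnk, and Ly75, the endocytic receptor DEC-205, at 2.17 and 1.61. Ccl17 was found in 2 cells of each d18 library, with 78.6% of its combod18t and 66.7% of its ctxd18t counts in 1 cell, and in 5 Combined cells. Of these genes, Spp1, Cd7 and Blnk turned in the first pair without the top cells, and Blnk and Ly75 in the second.

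**Figure D5:**
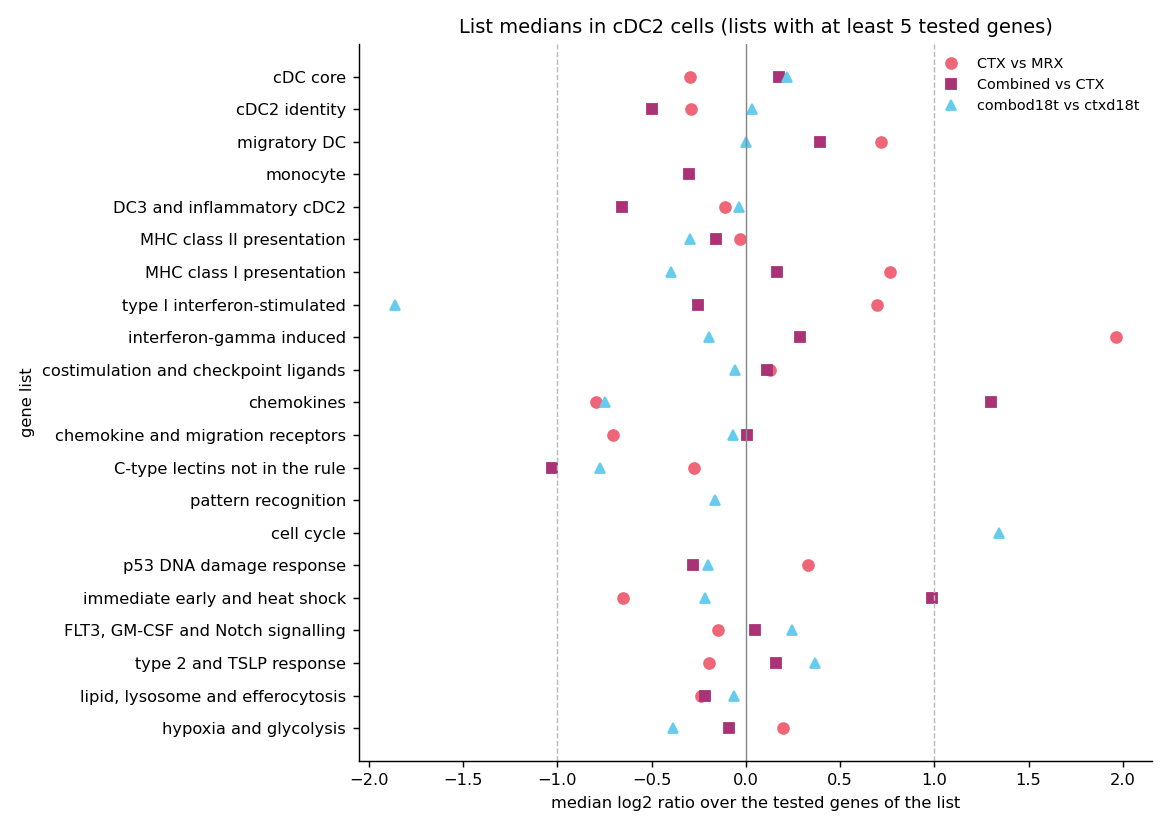
Median log2 ratio over the tested genes of each list with at least 5 of them, in 3 pairs of libraries, with dashed lines at 2-fold. The interferon-gamma list stands at 1.97 in CTX against MRX and the type I interferon list at -1.86 in combod18t against ctxd18t, and the cell-cycle value of the d18 pair rests mostly on 1 cell.

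MERTK is the receptor kinase that the title names. Mertk was barely detected in the members, with 3 counts in MRX, 9 in combod18t, all in 1 cell, and 0 in CTX, Combined and ctxd18t. Axl, the related receptor, had 22 counts for MRX, 7 for CTX, 1 for Combined, 15 for ctxd18t and 3 for combod18t, in 10 of 38, 5 of 48, 1 of 9, 6 of 21 and 1 of 8 members. In B cells it was found in 2 of 262 for MRX, 9 of 486 for CTX, 2 of 539 for Combined, 1 of 713 for ctxd18t and 0 of 221 for combod18t. With each cell thinned to 2000 UMIs, the members with a UMI were 5 of 38 for MRX, 0 of 48 for CTX and 1 each for Combined, ctxd18t and combod18t. The B cells with a UMI were then 2 of 261, 1 of 484, 1 of 538, 0 of 710 and 0 of 221. None of the 5 TAM receptor and ligand genes reached the levels set for testing in any pair, so differences in them were not tested.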

How the data were processed

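The authors deposited raw UMI counts per gene and barcode, 1 matrix per library, and the labels' protocols name Cell Ranger 9.0.1 for making and demultiplexing them. The submitters' processing notes also name GRCm39 and Seurat 5.2.0, with no role. Library preparation was 10x 3′ on-chip multiplexing. Cells with at least 200 genes and at most 15% mitochondrial counts were kept. Counts of members were summed per library and expressed as CPM, and ratios are log2 of CPM + 1. Intervals of 95% are exact Poisson, Clopper-Pearson, Newcombe and conditional binomial, and cover counting error only. Python 3.11.15, numpy 2.4.6, scipy 1.17.1, pandas 2.3.3 and matplotlib 3.10.9 were used. The ratios and intervals were tested on simulated Poisson counts, the model that the intervals assume. Those counts had no clumping by cell, so that test cannot tell how the intervals hold where 1 cell carries most counts. No count model and no doublet caller were run, and members with over 2 times their library's member median UMIs, with stricter exclusions, or with over 2 Nkg7 UMIs were left out in turn.

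Comparison cells were picked by like count rules: cDC1 by Flt3 with Xcr1 and Clec9a, plasmacytoid cells by Siglech with Flt3, CCR7 dendritic cells by Ccr7 with Fscn1, monocytes by Vcan and F13a1, macrophages by at least 20 C1q counts, and B cells by Cd79a with Ms4a1. Clustering was not used. Named genes were, per pair, the 10 highest and 10 lowest ratios among tested genes whose interval excludes 0, outside the rule, with a member CPM at least 0.5 times that of other kept cells. To these were added the 5 each way that agreed in sign in the pairs with and without d18, list members past 2-fold, a fixed set of dendritic genes, and genes that differed from like cells in all 5 libraries. Of list members past 2-fold, those that carry each list are named. The members, lists and 31 gene groups were chosen with earlier results of these data known. The choices to leave out members with Nkg7, to leave out each gene's top member, to follow 4 lists through the alternatives, to name genes lower than in like cells, and which promoters to show were made after seeing the data. Promoter windows came from RefSeq (GRCm38.p6), used without the files' coordinates. Some genes are not reported here, and counts over lists include them.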

Additional observations from a re-analysis of the deposited data

Results flagged for a closer look

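The genes given here had log2 ratios of opposite sign in the first pair (Combined to CTX) and the second (combod18t to ctxd18t), and counting intervals that exclude 0 in each, and the difference between the pairs was not tested. Each library is 1 sample, and Combined and combod18t hold 9 and 8 members. Cxcl9 had 1.30 in the first pair and -2.56 in the second. Cd209d had -1.03 and 3.27, with its Combined counts in 1 cell, and Cd200r1 had -2.28 and 2.03, likewise with 1 Combined cell. In the second pair, 1 cell held 73.6% of the combod18t counts of Cd209d and 76.2% of those of Cd200r1, and the values were 2.65 and 0.68 without the top cells. Lyz2 had -3.68 and 0.23, and -0.63 in the second without the top cells. Nrp2 had -2.69 and 1.51, and -0.61 in the second without the top cells. Tcf4, a plasmacytoid transcription factor, had -0.81 and 1.56, with 62.4% of its combod18t counts in 1 cell and 0.74 in the second without the top cells. Arap2 had -0.79 and 0.89, and Immp2l -0.93 and 0.82. Epcam had 1.15 and -0.77, with -0.08 in the first without the top cells. Ier3 had 1.49 and -1.06, Tnfsf9 (4-1BB ligand) 0.90 and -1.83, and Psme2 0.67 and -0.60. Without the top cells the first value was 0.18 for Ier3 and 0.018 for Tnfsf9, and with Flt3 at 2 or more UMIs it was -0.64 for Tnfsf9. The second value for Psme2 was 0.20 with each member thinned to 2000 UMIs.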

How the results depend on the processing

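No paired analysis was possible because each label has 1 library, and for the same reason no replicate could be left out. The interferon-gamma list's CTX to MRX median ran from 1.28 to 3.08 over the alternatives, and the type I list's d18 median from -2.49 to -0.78, the last on 1 tested gene. With every cell thinned to 2000 UMIs before the rule, the differences in share of kept cells were -0.0236 points (Combined against CTX), -0.0552 (combod18t against ctxd18t) and -0.136 (Combined against MRX), and in share of dendritic cells -5.85 (Combined against CTX) and 2.60 (CTX against MRX). The cause was not tested for any value given here, unless fewer cells or genes are named.

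Genes past 2-fold numbered 225 (Combined against CTX), 351 (d18), 193 (CTX against MRX) and 414 (Combined against MRX). Without a CPM minimum, which admits more genes, they were 867, 732, 714 and 856. With Flt3 at 2 or more UMIs, which leaves fewer cells, they were 549 (Combined against CTX), 393 (CTX against MRX) and 657 (Combined against MRX). They were 415 in the first with stricter exclusions, and 68 (d18) and 228 (Combined against MRX) with each member thinned, which leaves 518 and 826 genes tested. Without each gene's top cell, 33 genes were higher and 203 lower in the first pair, and 60 and 196 in the d18 pair, a shift that its construction favours, since the library with fewer cells loses more.

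For list medians, Flt3 at 2 or more gave 3.08 for interferon gamma and 1.30 for type I genes in CTX against MRX, and -0.50 for MHC class II in both Combined against CTX and Combined against MRX. Stricter exclusions gave 0.016 for MHC class I in Combined against CTX. Each member thinned gave -0.37 for class II in Combined against CTX, and -0.78 for type I genes and 0.054 for class I in the d18 pair.

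Genes past 2-fold turned as follows in Combined against CTX. With Flt3 at 2 or more: Blnk -5.26, Ccr2 0.11, Egr1 -2.13, Epcam -1.20, Ier3 -5.38 and Ly6a -0.15, and of genes under 2-fold Tnfsf9 -0.64. With lectins at 3 or more: Blnk -5.54. With stricter exclusions: Cemip2 -3.48, Gzma -2.34, Spp1 -0.75 and Tnfrsf9 -3.19. Without very deep members: Cd7 -0.91, Cemip2 -4.70, Gzma -7.44, Nkg7 -0.53, Prf1 -2.44, Spp1 -1.55 and Tnfrsf9 -3.30. Without members with over 2 Nkg7 UMIs: Cd7 -0.83, Cemip2 -3.96, Gzma -1.97, Spp1 -1.53 and Tnfrsf9 -2.77. With each member thinned: Cemip2 -3.51. Without the top cells: Blnk -4.08, Cd7 -0.57, Cemip2 -3.96, Egr1 -1.98, Epcam -0.079, Gzma -1.97, Spp1 -1.30 and Tnfrsf9 -2.41.

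In the d18 pair, Irf7 turned to 0.036 with Flt3 at 2 or more, Ly75 to -0.50 with stricter exclusions, and Irf1 to 0.39 and Irf7 to 0.65 with each member thinned. Without the top cells, Blnk turned to -0.041, Ly75 to -0.30, Mki67 to -3.14, Nrp2 to -0.61, Stmn1 to -4.43 and Top2a to -2.66. In CTX against MRX, Il12b was the gene past 2-fold that turned, to -3.99 with Flt3 at 2 or more. Genes near equality also changed sign there, Ccr7 from 0.12 to -0.18 and H2-Ab1 from -0.028 to 0.055.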

Other observations

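Stress and metabolic lists had medians between -0.65 and 0.33 in CTX against MRX. Of 6 tested genes of the p53 response, none was called higher and 1 lower (Ddit4), with a median log2 ratio of 0.33. Of 11 hypoxia and glycolysis genes none was called, with a median of 0.19. Of 14 immediate early and heat shock genes, Jun was called higher and Fos, Fosb, Ier3 and Dusp1 lower, with a median of -0.65. Of 10 lipid and lysosome genes, Fabp5, a fatty acid carrier, was called higher and Apoe and Spp1 lower. The FLT3, GM-CSF and Notch signalling list had none of 8 genes called, with a median of -0.15.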
